A study of Homo sapiens with 6 samples.

Results

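Protein phosphatase 6 (PP6) is a serine/threonine phosphatase whose 7 human subunit genes were followed here after a miR-941 mimic was put into 293T cells. The 7 genes are the catalytic subunit PPP6C, the regulatory subunits PPP6R1, PPP6R2 and PPP6R3, and the ankyrin repeat subunits ANKRD28, ANKRD44 and ANKRD52. They were taken by name from 26613 genes counted in at least 1 library, and all 7 were found. The complex was chosen by the fall of ANKRD52 counts between mimic and mock, and its other subunits by name, so the changes of the 7 genes below are a description of these libraries and support nothing by themselves. The data were RNA-seq counts from 6 cultures of 293T, a line derived from human embryonic kidney that takes up transfected nucleic acids well. In the mimic group, 3 cultures received a miR-941 duplex at 10 nM with a cationic lipid. In the mock group, 3 cultures received a scrambled oligonucleotide in parallel. The labels record no dose for it, and effects of dose and of sequence cannot be told apart. Cells of both groups were plated 24 h before transfection in medium without antibiotics, and RNA depleted of ribosomal RNA was read over 100 bases from 1 end. All 6 cultures are of 1 cell line and the labels call the transfections independent.

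PP6 belongs to the PP2A-type family, in which a small catalytic subunit gains its targets from its partners. A PP6 holoenzyme is built from PPP6C, a regulatory subunit with a SAPS domain (PPP6R1 to PPP6R3) and a long ankyrin repeat protein (ANKRD28, ANKRD44 or ANKRD52). It is known for restraining the mitotic kinase Aurora A bound to TPX2. With ANKRD52 it is also known for removing phosphates from AGO2, the Argonaute protein that carries microRNAs, which casein kinase 1 alpha (CSNK1A1) puts there when AGO2 meets a target. A microRNA lowers mRNAs mainly by pairing of its bases 2 to 8, the seed, with their 3′ UTRs.

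The sequences that matter for this comparison are the mature strand of the mimic and its matches in the 3′ UTRs of the PP6 genes, 5′ to 3′. In the microRNA the capitals mark the seed (RefSeq, GRCh38.p14). In the genes they mark the bases complementary to it, in the longest annotated 3′ UTR (GENCODE release 29, GRCh38).
miR-941: cACCCGGCugugugcacaugugc
ANKRD52, match to bases 2 to 8, chr12:56240917-56240946, minus strand: atgggtcctccagagagaacttGCCGGGTg
ANKRD52, match to bases 2 to 7, chr12:56240171-56240200, minus strand: ggtcccaggaaggaccagcagacCCGGGTc
PPP6R3, match to bases 2 to 7, chr11:68614720-68614749, plus strand: cgcctcctcaggaaccccctttcCCGGGTg
ANKRD52 was the 1 member of 7 with the full 7-base match, GCCGGGT. It lies in exon 28 of 28, starting at base 2218 of a 3′ UTR of 5335 bases, and the 6-base match CCGGGT starts at base 2965. PPP6R3 held a 6-base match in exon 24 of 24, starting at base 1626 of a 3′ UTR of 2217 bases. No match of 6 or 7 bases was present in the longest 3′ UTRs of PPP6C (3100 bases), ANKRD28 (3034), ANKRD44 (4005), PPP6R1 (748) or PPP6R2 (857). In the coding sequences, PPP6R2 alone had a 6-base match and none had the 7-base match.

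The 7-base match was present in the longest 3′ UTR of 625 of 12980 tested genes, or 4.82%, and the 6-base match in 13.3%. Long 3′ UTRs hold it more often. That of ANKRD52 was longer than those of 93.0% of tested genes, and among 1026 genes with a 3′ UTR between 80% and 125% of its length, 10.6% had the 7-base match. Only the sense strand of the transcripts was searched. A match is a stretch of letters and no measured binding site.

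**Figure D1:**
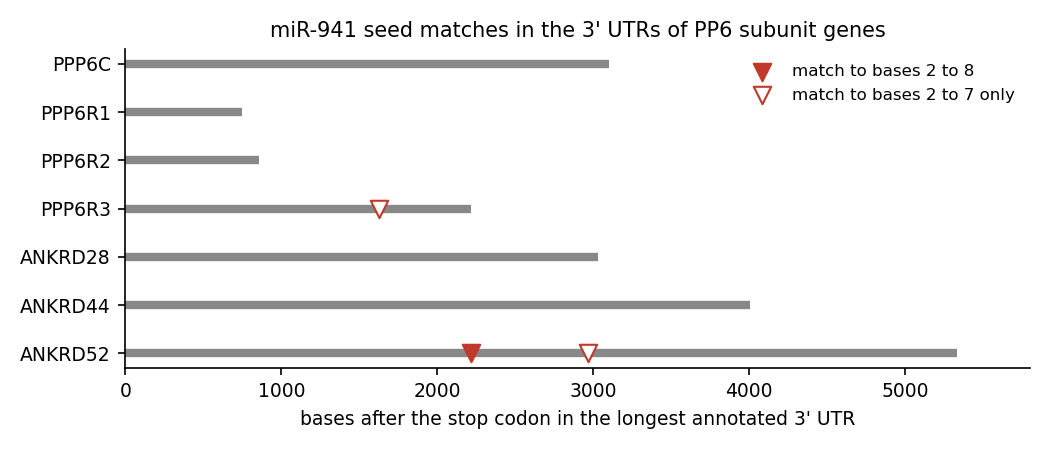
Positions of miR-941 seed matches in the 3′ UTRs of the PP6 subunit genes, the longest annotated for each. The horizontal axis gives bases after the stop codon, grey bars the length of each 3′ UTR, filled triangles the match to bases 2 to 8 and open triangles the match to bases 2 to 7 only; ANKRD52 has a filled triangle at 2218 and PPP6R3 an open one at 1626.

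The libraries held 6079420 to 7651046 counts. Libraries of the same group varied 1.27 to 2.38 times as much as sampling noise would give, and those of different groups 3.58 to 4.8 times as much. Mimic replicate 3 stood apart from the other mimic libraries, at 2.04 and 2.38 times, so values without it are given for the PP6 genes that were called. Of 7 markers fixed for 293T, NEFL and LHX1 were not matched by symbol to a counted gene, so their levels are not known here. The other 5 were NEFM, VIM, KRT8, KRT18 and PAX2. Their summed CPM (counts scaled to a common library size) was 1880 to 1970 in the mimic and 1760 to 1870 in the mock libraries. Of the 5, NEFM rose from 55.9 ± 2.14 to 81.8 ± 2.90 CPM (adjusted p = 9.13e-10 by edgeR) and KRT18 from 196 ± 8.22 to 222 ± 7.60 CPM, and their part in the results below was not tested. The KRT18 call (adjusted p = 0.00741 by edgeR) ended without mock replicate 2 (0.0835) or mimic replicate 1 (0.0713). Of 7 markers of other cells, PTPRC and PECAM1 were likewise not matched by symbol. The others summed to 37.2 to 42.5 CPM in the mimic and 36.1 to 39.6 CPM in the mock libraries, nearly all from COL1A1. In bulk RNA, fewer cells with a transcript and less of it per cell cannot be told apart. Of 15607 genes tested for a difference between the groups, 13.0% were called, 6.8% as risen and 6.19% as fallen. A gene is called here when its Benjamini-Hochberg adjusted p from edgeR is under 0.05.

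Of the 7 PP6 genes, 2 fell and none rose, against 6.19% of all tested genes that fell. These were ANKRD52 and, just inside the threshold, PPP6C. All 7 passed the filter on low counts in that test. The mimic and mock libraries did not overlap in 4 of the 7 genes, PPP6C, PPP6R1, PPP6R2 and ANKRD52, and in 28.3% of all tested genes. The choice of the set used this same contrast, so nothing is read from these shares.

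PPP6C encodes the catalytic subunit on which every PP6 holoenzyme depends. It was at 128, 124 and 125 CPM in mimic replicates 1 to 3 and at 139, 132 and 147 CPM in mock replicates 1 to 3. Every mimic library lay below every mock library, and the gap between the nearest of them was small beside the spread of the mock libraries. The log2 fold change was −0.15 ± 0.05 (SE), with a 95% interval of −0.26 to −0.04, or 90.1% of the mock level. Its adjusted p by edgeR's quasi-likelihood test was 0.0496. The call ended with DESeq2 (adjusted p = 0.151), with limma-voom (0.0562) and with the replicate number as a block in edgeR (0.0657). It also ended without mock replicate 3 (−0.11, adjusted p = 0.267), mock replicate 1 (0.126), mimic replicate 2 (0.113) or mimic replicate 1 (0.0943), and stood at 0.0499 without mimic replicate 3.

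The SAPS-domain genes, whose products hold PPP6C and contribute to the choice of its targets, had no called member. PPP6R1 was at 230, 234 and 235 CPM in the mimic and 213, 219 and 230 CPM in the mock libraries, a log2 fold change of 0.08 ± 0.05 with an interval of −0.02 to 0.17. PPP6R2 was at 101, 108 and 103 CPM in the mimic and 92.9, 97.3 and 96.6 CPM in the mock libraries, with 0.12 ± 0.06 and an interval of 0.01 to 0.24. In both genes the mimic libraries were the higher ones, by less than the threshold required after adjustment over all genes (adjusted p = 0.32 and 0.162 by edgeR). PPP6R3, the member with a 6-base match, was at 158, 168 and 175 CPM in the mimic and 166, 173 and 161 CPM in the mock libraries. The groups overlapped throughout, and the interval of its log2 fold change ran from −0.10 to 0.10.

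The ankyrin repeat genes encode long scaffolds that bind the SAPS subunits, and they did not move as a group. ANKRD52 was at 211, 205 and 232 CPM in the mimic libraries and at 356, 358 and 367 CPM in the mock libraries. The mock libraries lay close together and every mimic library was far below them, with mimic replicate 3 the highest of the mimic group. The log2 fold change was −0.74 ± 0.05, with an interval of −0.83 to −0.64, which leaves 60.0% of the mock level. Among 15607 tested genes, 67 had a lower log2 fold change and 5 a smaller p. ANKRD52 was chosen by this fall, so nothing is read from these ranks. Without mimic replicate 3 the value was −0.79. Over all 12 alternative settings and left-out libraries it lay between −0.79 and −0.70, and the gene was called as fallen in each.

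ANKRD28, another scaffold of PP6, was at 69.8, 66.9 and 71.1 CPM in the mimic and 73.5, 73.1 and 67.4 CPM in the mock libraries. ANKRD44, the member with the fewest reads, was at 10.9, 9.08 and 12.4 CPM against 10.3, 12.2 and 12.1 CPM. Both overlapped between the groups and neither was called. The interval was −0.18 to 0.08 for ANKRD28. For ANKRD44, which rests on 65 to 88 counts per library, it was −0.39 to 0.19, and changes within that range were not detectable at this depth. Neither interval reached that of ANKRD52.

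**Figure D2:**
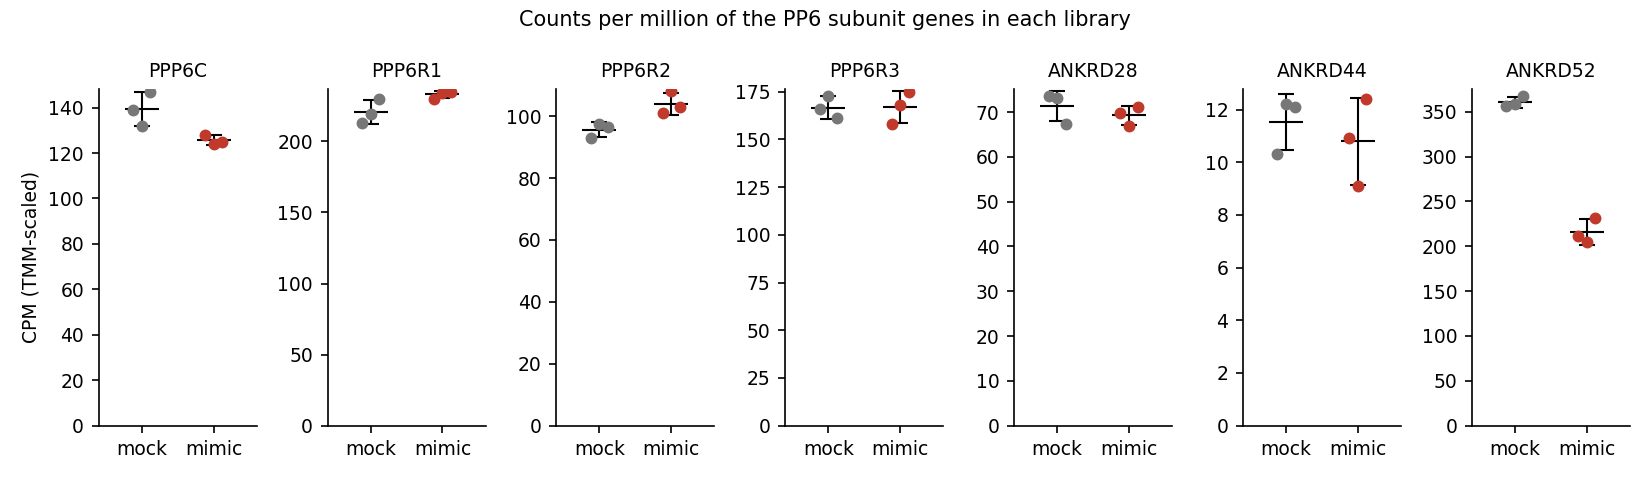
CPM of the 7 PP6 subunit genes in the 3 mock (grey) and 3 mimic (red) libraries. Points are libraries, horizontal marks means and bars SDs, and every vertical axis starts at 0; ANKRD52 lies at 205 to 232 CPM in the mimic and 356 to 367 CPM in the mock libraries, and PPP6R3, ANKRD28 and ANKRD44 overlap.

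**Figure D3:**
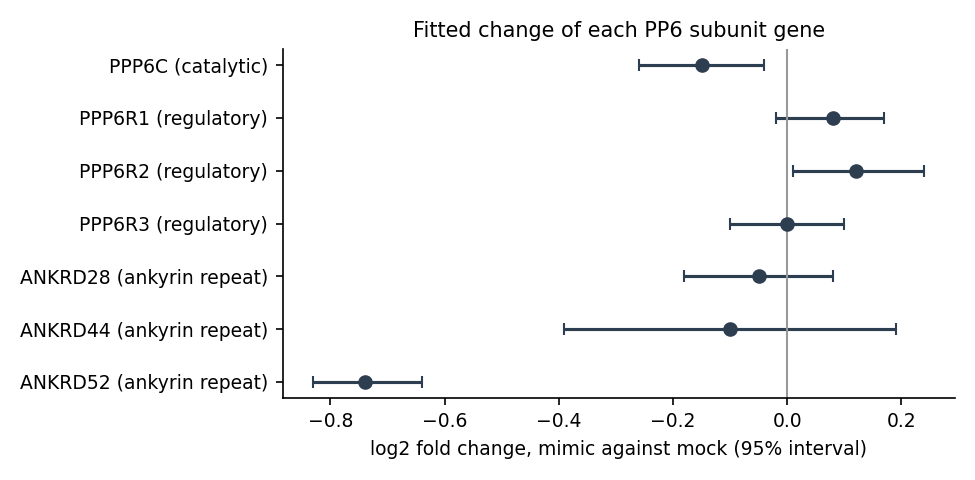
Fitted log2 fold change of each PP6 subunit gene, mimic against mock, with 95% intervals from edgeR's quasi-likelihood fit. ANKRD52, at −0.74, has an interval that overlaps none of the others, and those of PPP6R1, PPP6R3, ANKRD28 and ANKRD44 include 0.

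The levels of the genes were compared per length as RPKM (CPM per kilobase of merged exons). In the mock libraries ANKRD52 was the highest, at 40.9 ± 0.65 RPKM (SD, n = 3), ahead of PPP6R1 at 33.5 ± 1.26 and PPP6C at 31.4 ± 1.71. The ranges of PPP6R1 and PPP6C overlapped, at 32.4 to 34.9 and 29.8 to 33.2 RPKM. Within each mock library PPP6R1 was the higher, at 32.4, 33.3 and 34.9 against 31.4, 29.8 and 33.2 RPKM. PPP6R3 followed at 20.1 ± 0.73, PPP6R2 at 17.9 ± 0.44, ANKRD28 at 6.33 ± 0.31 and ANKRD44 at 0.902 ± 0.085 RPKM. In the mimic libraries ANKRD52 stood at 24.5 ± 1.62 RPKM, below PPP6R1 at 35.4 ± 0.36 and PPP6C at 28.3 ± 0.43. PPP6R3 at 20.1 ± 1.05 and PPP6R2 at 19.4 ± 0.69 RPKM overlapped there. This order depends on the length used. With the longest annotated transcript instead, PPP6R1 led the mock libraries at 55.7 ± 2.10 RPKM, ahead of ANKRD52 at 41.5 ± 0.66, and PPP6R3 (32.7 ± 1.19) and PPP6C (32.1 ± 1.74) were level.

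ANKRD52 made up most of the ankyrin repeat transcripts in both groups. Its share of their summed RPKM was 84.7%, 84.5% and 85.7% in the mock libraries and 77.3%, 77.8% and 78.4% in the mimic libraries. The share of ANKRD28 was 13.2 ± 0.74% in the mock and 19.5 ± 0.67% in the mimic group, with little difference in its own level. The summed level of the ankyrin repeat genes was 48.1 ± 0.40 RPKM in the mock and 31.5 ± 1.91 RPKM in the mimic group. That is 1.53 ± 0.08 per RPKM of PPP6C in the mock and 1.12 ± 0.07 in the mimic group. With the longest transcript as the length, the share of ANKRD52 was 76.9% in the mock and 67.4% in the mimic group. A length scales a gene alike in every library, so this could not change the direction and is no check of it. The lower share in the mimic group restates the fall of ANKRD52.

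The regulatory genes differed little in their shares. PPP6R1 took 46.9 ± 1.19% of their summed RPKM in the mock and 47.2 ± 0.68% in the mimic group. PPP6R2 took 25.0 ± 0.15% and 26.0 ± 0.64%, and PPP6R3 28.1 ± 1.14% and 26.8 ± 0.85%. Their sum was 71.5 ± 1.44 RPKM in the mock and 74.9 ± 1.80 RPKM in the mimic group. Every mimic library lay above every mock library, but the lowest mimic value was 72.8 and the highest mock value 72.3 RPKM. That gap was smaller than either SD, and 28.3% of all tested genes had no overlap. Per RPKM of PPP6C the sum was 2.28 ± 0.13 in the mock and 2.65 ± 0.10 in the mimic group. The direction was opposite to that of the ankyrin repeat genes. This ratio also carries the lower level of PPP6C in the mimic group, 28.3 against 31.4 RPKM. The PPP6C call ended in several alternatives, and no regulatory gene was called.

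**Figure D4:**
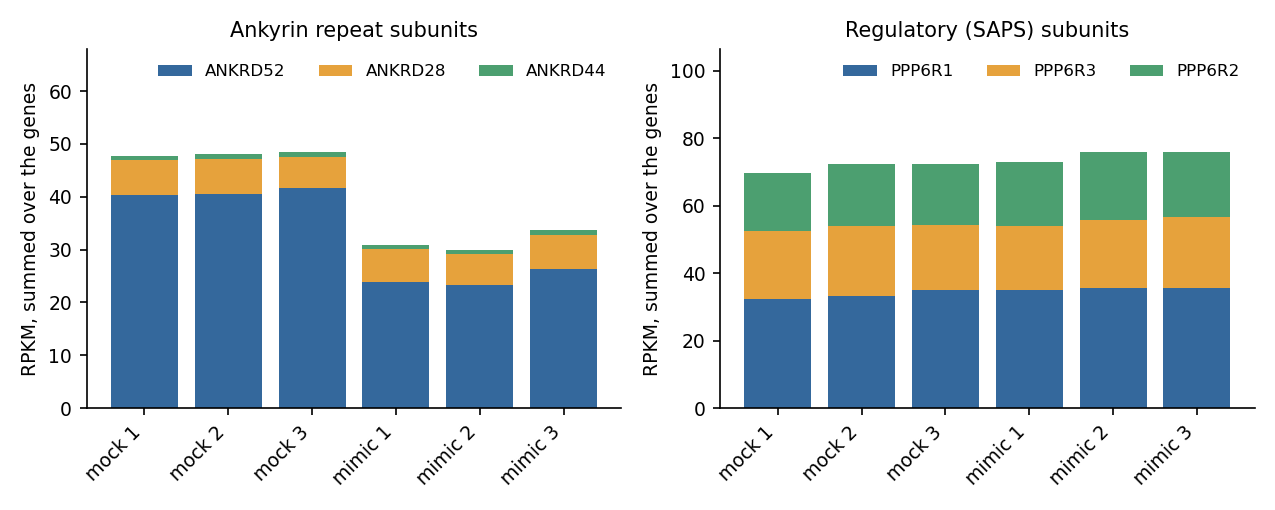
Summed RPKM of the ankyrin repeat subunits (left) and the regulatory subunits (right) in each library, with 1 coloured segment per gene. The ankyrin repeat bars stand at 47.7 to 48.5 RPKM in the mock and 29.9 to 33.6 RPKM in the mimic libraries, mostly through the ANKRD52 segment, and the regulatory bars at 69.8 to 72.3 RPKM in the mock and 72.8 to 76.0 RPKM in the mimic libraries.

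The 3 ankyrin repeat genes are related in sequence, so reads could in principle be shared between them. Their coding sequences were 69.0% identical for ANKRD28 and ANKRD44, 64.5% for ANKRD44 and ANKRD52 and 63.3% for ANKRD28 and ANKRD52, over the bases aligned without gaps. No stretch of 100 bases, the read length, in the transcripts of any of the 3 was found in a transcript of another gene. The SAPS-domain genes were 60.9% to 66.5% identical, and PPP6C was 64.3% identical to PPP2CA and 64.8% to PPP4C. Of the 100-base stretches of PPP6R1, 6.2% were also present in an overlapping processed transcript, ENSG00000276570, which was listed in no library. Exons of ANKRD52 overlap those of SLC39A5 on the opposite strand over 40 bases, and SLC39A5 was counted at 0.281% of its level. Exons of PPP6R2 overlap those of SBF1 on the opposite strand over 91 bases. SBF1 was at 331 ± 26.9 CPM in the mimic and 333 ± 15.9 CPM in the mock group, 333% of the level of PPP6R2. No source used here says if reads were assigned by strand, so reads of such partners may be mixed. A noncoding gene on the opposite strand of PPP6R3, ENSG00000260808, had 4.91% of its level.

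The genes whose profile over the 6 libraries was nearest to that of ANKRD52 were SLC3A1, NFIA, CERK and MTMR9, among 12885 other genes averaging at least 5 CPM. The root mean square difference of their centred log2 CPM from that of ANKRD52 was 0.044, 0.061, 0.064 and 0.064. SLC3A1, a subunit of an amino acid transporter, was at 14.5 ± 0.87 CPM in the mimic and 23.7 ± 1.15 CPM in the mock group. NFIA, a transcription factor, was at 18.7 ± 2.33 and 31.4 ± 0.95 CPM. CERK, which makes ceramide 1-phosphate, and MTMR9, a catalytically inactive myotubularin, each have 1 GCCGGGT match in the longest 3′ UTR. SLC3A1 and NFIA have none. In MTMR9 an A follows the match. The match was present in 4.82% of tested genes, and the nearest genes are too few to set beside that share. The ranking used the same values by which ANKRD52 was chosen, so a like fall in these genes was fixed in advance.

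PP4 and PP2A are the closest relatives of PP6. Of 5 tested PP4 subunit genes none was called, where 13.0% of all tested genes were, and 5 genes are too few to read a difference from. They had log2 fold changes between −0.13 (PPP4R2) and 0.28 (PPP4R4) and a median of −0.03. The catalytic PPP4C was at 142 ± 10.1 CPM in the mimic and 147 ± 7.36 CPM in the mock group, with an interval of −0.16 to 0.06. Of these 5, 0 had an unadjusted p under 0.05 in edgeR, where 25.5% of all tested genes did, and none was called by limma-voom. DESeq2 gave PPP4R4 no adjusted p and called none of the others.

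Of 18 tested PP2A subunit genes 2 rose and 3 fell, or 27.8% against 13.0% of all genes, with a median log2 fold change of −0.10 against 0.00 for all. The falls were in the core of the enzyme. The catalytic PPP2CA was at 200, 193 and 206 CPM in the mimic and 229, 242 and 238 CPM in the mock libraries, a log2 fold change of −0.24 ± 0.05 (adjusted p = 0.000151 by edgeR). The scaffold PPP2R1A changed by −0.22 ± 0.05 and its relative PPP2R1B by −0.51 ± 0.06, from 104 ± 1.22 to 72.8 ± 2.60 CPM. The targeting subunit PPP2R2A rose from 72.4 ± 6.36 to 89.3 ± 4.29 CPM. The other risen gene, PPP2R2B, another targeting subunit, is named after its values were seen. It was at 4.12 ± 1.06 CPM in the mimic and 2.14 ± 0.576 CPM in the mock group (0.90 ± 0.27, adjusted p = 0.0187 by edgeR). Its call ended without mock replicate 3 (0.125), mimic replicate 2 (0.103) or mimic replicate 3 (0.0601), and DESeq2 gave it no adjusted p. None of these 5 genes has a GCCGGGT match in its longest 3′ UTR, and PPP2R1A has a 6-base match.

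Of 11 listed regulators of PP2A-type catalytic subunits, 1 rose and 2 fell, with a median log2 fold change of −0.10. Of all tested genes 6.8% rose and 6.19% fell. The list was not limited to regulators of PP6, and the called genes are described here by their action on PP2A. LCMT1, the methyltransferase of the PP2A catalytic carboxyl end, fell from 36.0 ± 3.07 to 25.0 ± 2.03 CPM. PTPA, which activates PP2A, changed by −0.19 ± 0.06 (adjusted p = 0.0122 by edgeR, and 0.0628 by DESeq2). The PTPA call also ended without mock replicate 1 (0.0885), mock replicate 3 (0.0793) or mimic replicate 1 (0.0752). ENSA, a mitotic inhibitor of PP2A, rose from 124 ± 6.34 to 155 ± 2.50 CPM. IGBP1, the alpha4 protein that binds PPP6C, PPP4C and PPP2CA outside their holoenzymes, was at 44.8 ± 1.66 and 48.2 ± 0.32 CPM and was not called.

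Among 13 genes of mitosis and DNA damage listed as partners of PP6, 3 fell and none rose, with a median of −0.02. Of all tested genes 6.19% fell. The list came from general knowledge, and a direct action of PP6 on each product was not tested. AURKA, the kinase that PP6 restrains, was at 99.2, 97.6 and 91.0 CPM in the mimic and 129, 132 and 124 CPM in the mock libraries (−0.42 ± 0.06, adjusted p = 3.18e-08 by edgeR). Its activator TPX2 was at 277 ± 10.3 CPM in the mimic and 253 ± 4.94 CPM in the mock group and was not called (adjusted p = 0.0533). It passed without mimic replicate 2 (0.0319) and among genes of at least 5 CPM (0.0415). PLK1, a kinase activated by Aurora A, changed by −0.55 ± 0.05. The condensin subunit NCAPD2 changed by −0.15 ± 0.05, a call that ended under DESeq2 (adjusted p = 0.0507) and without any one of the libraries other than mimic replicate 2 (0.0523 to 0.0893). Of 23 tested signalling partners, among them kinases of the MAPK, Hippo and TAK1 pathways, none was called by edgeR, DESeq2 or limma-voom, where edgeR called 13.0% of all tested genes. An unadjusted p under 0.05 was found in 7 of them, and in 25.5% of all tested genes. Their log2 fold changes ran from −0.24 to 0.24, and the smallest p-values were those of DOCK1 (0.17 ± 0.06) and MOB1A (−0.15 ± 0.06). Without mimic replicate 3, 2 were called, DOCK1 (adjusted p = 0.0197 by edgeR) and EIF2S1, named after its values were seen.

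The list for the cycle that phosphorylates and dephosphorylates Argonaute held AGO1 to AGO4 and CSNK1A1. It also held TNRC6A to TNRC6C, which are in it as proteins that bind Argonautes, not as its kinase or phosphatase. Of these 8 genes 4 fell and none rose, with a median of −0.15, where 6.19% of all tested genes fell. The 4 were AGO2, AGO4, TNRC6A and TNRC6C, and the kinase gene CSNK1A1 was not among them. AGO2, the substrate of ANKRD52-bound PP6, was at 58.2, 64.0 and 59.0 CPM in the mimic and 63.5, 67.2 and 80.3 CPM in the mock libraries. The groups overlapped, and its call (−0.21 ± 0.07, adjusted p = 0.0391 by edgeR) ended without mock replicate 3 (−0.11, adjusted p = 0.41), mimic replicate 1 (0.165) or mimic replicate 3 (0.0542), under DESeq2 (0.151) and with limma-voom (0.0505). AGO4, another Argonaute, changed by −0.26 ± 0.07 (adjusted p = 0.0549 by DESeq2). The GW182 proteins TNRC6A and TNRC6C, which bind Argonautes and recruit deadenylases, changed by −0.23 ± 0.05 and −0.58 ± 0.08. CSNK1A1 was at 159 ± 0.59 CPM in the mimic and 169 ± 1.16 CPM in the mock group and was not called (adjusted p = 0.241).

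**Figure D5:**
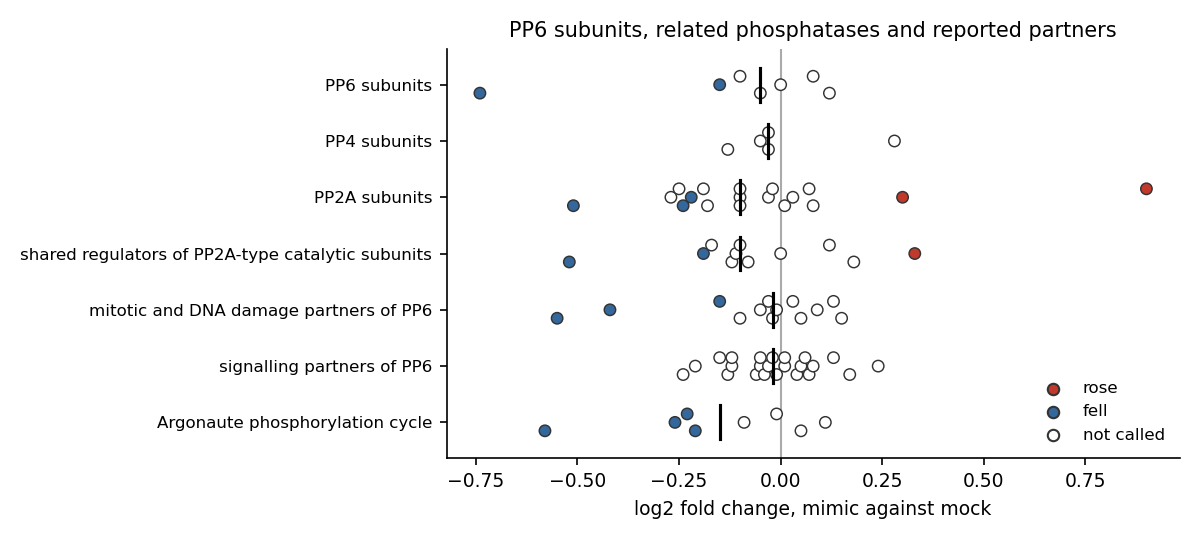
Log2 fold changes, mimic against mock, of the tested genes in each list, with 1 point per gene and a black line at the median. Blue points fell and red points rose at an adjusted p under 0.05; ANKRD52 is the leftmost point of the PP6 subunits at −0.74, and the PP4 subunits and signalling partners have no filled point.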

How the data were processed

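The authors deposited raw counts per Ensembl gene, 1 table per library. STAR, edgeR and hg19 are named per the submitters' processing notes, without versions. No source used here names the counting program, the annotation or the strand setting. Genes absent from a table were taken as 0.

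Samples were grouped by title, 3 mimic and 3 mock. Counts were filtered with filterByExpr, which kept 15607 genes and 99.7% of the counts, scaled by TMM and tested with edgeR's glmQLFit and glmQLFTest (quasi-likelihood, robust) with the group only as design (R 4.3.3, edgeR 4.0.16), with Benjamini-Hochberg adjustment over all genes and a threshold of 0.05. Fold changes compare mimic with mock, with SEs from the test statistic. DESeq2 1.42.0, limma-voom 3.58.1, RLE factors, other filters, the replicate block and each library left out were alternatives. In simulated counts of this design over 15447 genes, 77.6% of 98 genes changed by 0.7 on the log2 scale were recovered. Of 100 genes changed by 0.3, 44.0% were recovered, and 14 of 15249 unchanged genes were called. Far fewer genes were changed there than the 2027 called in the data. They were drawn without regard to expression level, so recovery in the data may differ.

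Symbols came from a table of gene names (25141 of 26613 genes), and PPP4R3B and PPP2R3B were not analysed here. Lengths, 3′ UTRs (complete protein-coding transcripts, longest per gene) and read-length matches came from GENCODE release 29 on GRCh38, not the hg19 of the authors, so no deposited coordinate was used. Protein identity was planned, and coding sequence identity was computed in its place (Biopython 1.88 global alignment). Pairing energies came from RNAduplex (ViennaRNA 2.7.2).

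The members, lists and rules were chosen with earlier results of these data known. Named were the 7 members, up to 4 called genes per list by smallest p (or up to 2 by smallest p where none was called), PPP2CA, PPP4C, IGBP1, AURKA, TPX2, AGO2 and CSNK1A1, the 4 nearest profiles to ANKRD52 (log2 CPM, prior count 2) and tested genes overlapping a member's exons. PPP2R2B, NEFM, KRT18 and EIF2S1 were added after their values were seen. STRN4, AGO3 and TNRC6B were named for their 7-base match. EIF2S1, STRN4, AGO3 and TNRC6B are not among the 38 named genes followed over the alternatives.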

Additional observations from a re-analysis of the deposited data

How the results depend on the processing

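ANKRD52 kept its direction and call in all 12 alternatives. The number of PP6 genes called was 2, and it was 1 with DESeq2, 1 with limma-voom, 1 with the replicate block and 1 to 2 with 1 library left out, PPP6C being the gene lost. Over all genes, 2027 were called (966 fell and 1061 rose), and DESeq2 called 1018 (505 fell and 513 rose). With 1 library left out the count was 1302 to 2061, with 613 to 981 fallen and 689 to 1080 risen. The lowest counts were those without mock replicate 1, and 631 fell without mock replicate 3. The regulators of PP2A-type catalytic subunits had 3 called genes, and 5 among genes of at least 5 CPM. With 1 library left out they had 2 to 5, with 5 without mimic replicate 3. Signalling partners had 0, and 0 to 2 with 1 library left out (2 without mimic replicate 3). The Argonaute cycle list had 4, with 2 under DESeq2 and 3 to 4 with 1 library left out. The share of ANKRD52 among ankyrin repeat genes was 85.0% in the mock and 77.8% in the mimic group by merged exons, and 76.9% and 67.4% by the longest transcript. The match to bases 2 to 7 was present in the 3′ UTRs of 2 members, that to bases 2 to 8 in 1, also over all annotated 3′ UTRs. Same-numbered mimic and mock libraries deviated together with correlations of 0.0933, −0.0816 and −0.0469, against −0.0836 to 0.133 for other numbers. With 3 libraries per group, these values cannot show if a number marks a shared batch, and the main test used no pairing. The replicate block ended 1 call among 38 named genes, that of PPP6C. DESeq2 gave no adjusted p for 3 of the named genes (PPP4R4, PPP2R2B and ENSG00000260808). Why these values moved was not tested.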

Other observations

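Outside the PP6 subunits, 4 tested phosphatase, partner and Argonaute cycle genes have the 7-base match, and 0 of these were called. Of all tested genes 13.0% were called, so this count says nothing about the match. STRN4, a PP2A subunit with it, had a log2 fold change of −0.03 ± 0.05. In the Argonaute cycle list, AGO3, CSNK1A1 and TNRC6B each have 1 GCCGGGT match in the longest 3′ UTR, and none of these 3 was called. AGO3 was at 27.0 ± 2.19 CPM in the mimic and 26.3 ± 3.49 CPM in the mock group, and TNRC6B at 102 ± 10.2 and 102 ± 4.96 CPM. The 4 genes of that list that fell have no 7-base match, and TNRC6C among them has a 6-base match.

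ANKRD52 had a lower log2 fold change than the other genes with a 3′ UTR of similar length and the same match. For 108 such genes the log2 fold change ran from −0.66 to 0.85 with a median of −0.02, against −0.74 for ANKRD52. Of 625 genes with the match, 5 had a lower value. The pairing of miR-941 with the 30-base ANKRD52 window was weak for such a site, at −17.2 kcal/mol by RNAduplex. Of 705 matched windows, 680 were stronger, with a median of −21.3 kcal/mol. These values were looked at after the change of ANKRD52 was known and are given as a description. ANKRD52 was chosen by its fall in this same contrast, so a low place among these genes was favoured in advance. Nothing about the match is read from that place.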
